A study of Mus musculus with 20 samples.

Results

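The genes described are 10 feedback inhibitors of growth factor signalling, chosen by symbol: the Sprouty genes Spry1, Spry2 and Spry4, the Sprouty-related genes Spred1, Spred2 and Spred3, the dual-specificity phosphatase genes Dusp4, Dusp5 and Dusp6, and Il17rd. All 10 were found among the 16927 genes listed, and all 10 passed the filter on low counts that left 13046 genes for testing. RNA came from adult spinal cord neural stem cells. The depletion uses a mouse model in which Cre recombinase, here carried by an adenovirus under the CMV promoter, can remove exon 3 of Yap1. The 4 groups were wild-type (WT) and YAP1-depleted (KO) cells, each either in proliferation (neurospheres after 7 days, with heparin, EGF and FGF2 in the medium) or after 5 days of differentiation, for which the labels name none of these factors. The labels name 20 samples, and the 8 libraries numbered 7 and 8 (n = 2 per group) entered the analysis. Whether WT cells received a virus or carried the same Yap1 allele is not stated, so the effect of either and that of losing YAP1 cannot be told apart. The labels do not say whether replicates are separate cultures or animals, and the p-values rest on a spread between samples that may be technical.

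EGF and FGF bind receptor tyrosine kinases that activate RAS, RAF, MEK and ERK in turn, and heparin helps FGF engage its receptors. Active ERK switches on its own inhibitors: Sprouty and Spred proteins act upstream, Spreds by bringing the RAS-inactivating protein neurofibromin to the membrane, while the phosphatases remove phosphate from ERK itself. DUSP6 does so in the cytoplasm and DUSP4 and DUSP5 in the nucleus, and IL17RD (Sef) is a membrane protein that dampens FGF signalling. In neural progenitors EGF and FGF2 sustain division, and transcripts of several of these inhibitors are widely used as a readout of ERK output.

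Total counts ranged from 18075595 to 18940983 per library. Yap1, the targeted gene, stood between 93.69 and 170.5 CPM (read counts scaled to a common library size) in the 4 WT libraries and between 22.59 and 32.71 CPM in the 4 KO libraries. Its fall in KO passed in proliferation (log2 fold change -2.42, adjusted p = 0.0322 by edgeR), a call that did not survive the removal of any 1 of the 8 libraries (adjusted p from 0.0854 to 0.44 by edgeR) or a fit on these 2 groups alone (0.705), and not in differentiation (-1.99, adjusted p = 0.106 by edgeR). In differentiation it passed with DESeq2 (adjusted p = 2.11e-22) and in edgeR with no filter on low counts (adjusted p = 0.0389). It also passed there in edgeR with a block on the replicate number (adjusted p = 0.0172). The authors' deposited DESeq2 q-values for Yap1 were 8.77e-36 in proliferation and 1.69e-16 in differentiation. The first principal component of log2 CPM (81.9% of the variance) parted proliferation from differentiation, and the second (10.7%) parted replicates numbered 7 from those numbered 8. Marker sums shifted with culture condition and, for some lists, with genotype. In proliferation the 6 stem and progenitor markers (Nes, Sox2, Vim, Pax6, Fabp7, Prom1) summed to 5289 to 5336 CPM in WT and 4303 to 4453 CPM in KO. In differentiation they summed to 3189 to 3685 CPM in WT and 2894 to 3576 CPM in KO. The single markers were split. By edgeR, Sox2 and Pax6 were called higher and Nes lower on differentiation in both genotypes. The median log2 fold change of the 6 was 0.19 in WT and 0.26 in KO. The 6 markers of dividing cells summed to 1967 to 2092 (WT) and 1918 to 1931 CPM (KO) in proliferation and to 6.789 to 10.14 and 2.902 to 5.943 CPM in differentiation. The 9 astrocyte markers summed to 1545 to 1567 and 1385 to 1715 CPM in proliferation and to 12860 to 14000 and 10680 to 11250 CPM in differentiation. For the 5 oligodendrocyte precursor markers the sums were 4134 to 4261 and 5208 to 5524 CPM in proliferation and 1801 to 1898 and 1887 to 2514 CPM in differentiation. Among them Olig1 and Olig2 were called lower on differentiation in both genotypes and Cspg4 in KO. Pdgfra was called higher in both genotypes, against the direction of the sum. Oligodendrocyte markers (4 of 5 in the table) gave 95.15 to 208.8 and 96.35 to 253.7 CPM, then 509.1 to 554.6 and 408.3 to 479.0 CPM. Neuron markers (6) gave 1090 to 1302 and 1088 to 1277 CPM, then 1591 to 1779 and 1992 to 2073 CPM. Ependymal markers (6) gave 46.54 to 57.82 and 32.83 to 35.48 CPM, then 52.3 to 64.68 and 18.38 to 29.29 CPM. Of the 3 that were tested, Hydin was called lower on differentiation in WT, and Hydin and Dynlrb2 in KO. Markers of microglia (2 of 5 in the table), endothelium (2 of 4) and fibroblasts (5) summed to at most 4.872 CPM in any library. The part of these shifts in the results below was not tested.

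Differentiation changed nearly the whole set. In WT, 8 of the 10 genes fell, Il17rd alone rose, and Spred3 did not pass (edgeR quasi-likelihood test, adjusted p under 0.05). Over all 13046 genes tested, 28.3% were called lower and 27.0% higher. In KO, 9 fell and Il17rd rose, where 26.7% of all genes were called lower and 25.1% higher. The median log2 fold change of the 10 was -1.38 in WT and -2.09 in KO, and that of all tested genes was 0.01 in both. Libraries of proliferation and differentiation did not overlap for any of the 10 in either genotype (9 lower and 1 higher), while 40.6% of all genes lay lower and 40.6% higher in this way in WT, and 38.1% and 37.8% in KO. In such bulk samples, fewer cells of a type and less RNA per cell cannot be told apart.

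**Figure D1:**
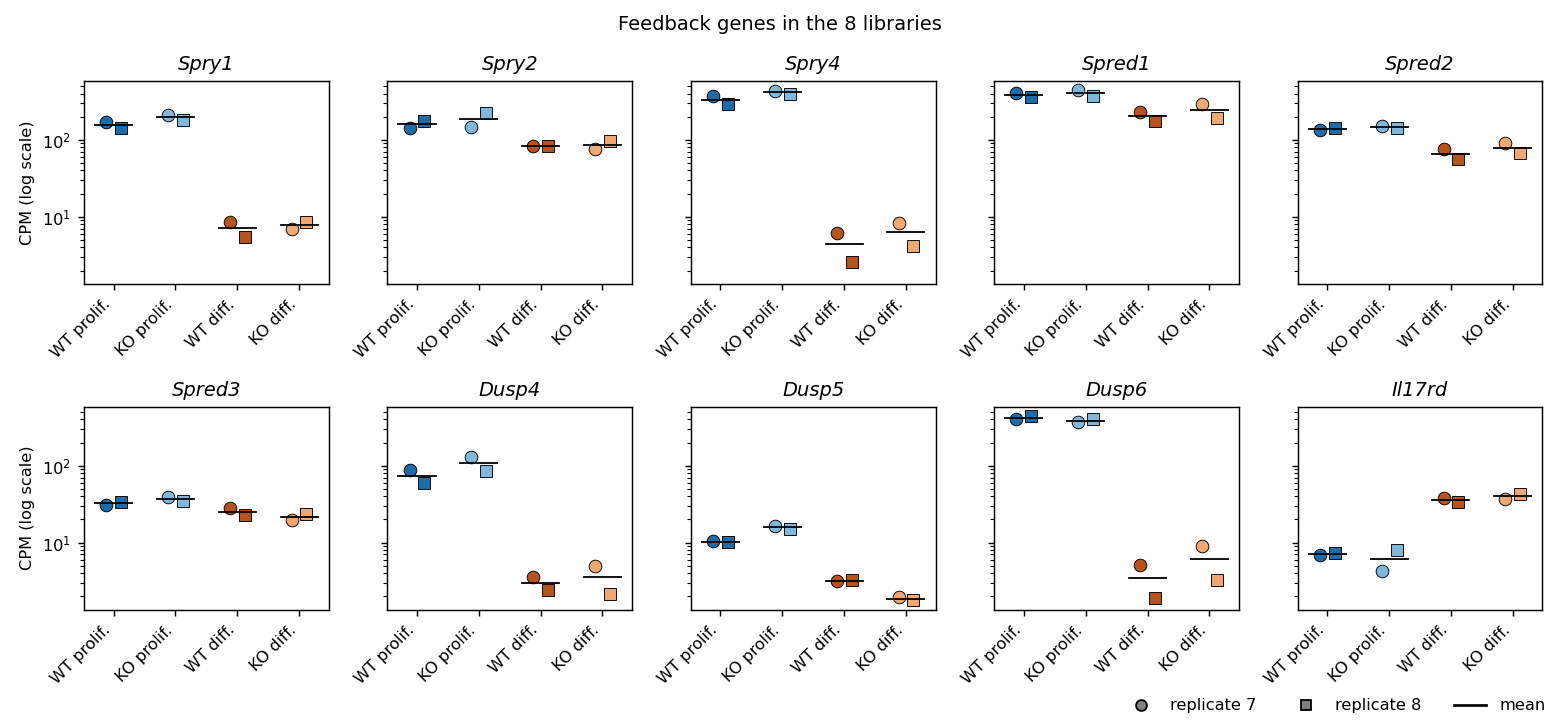
Normalised read counts (CPM, log scale) of the 10 genes in the 8 libraries, by group; circles are replicates 7, squares replicates 8 and lines the group means. Spry1, Spry4, Dusp4 and Dusp6 drop from between 59.8 and 441 CPM to under 10 CPM on differentiation in both genotypes, and Il17rd rises.

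The fall was graded, and the phosphatase gene Dusp6 (gene ID 67603, on chromosome 10 from 99263231 to 99267489, GRCm38) had the largest fall in WT and the next to largest, after Spry4, in KO. Dusp6 stood at 405 and 441 CPM in the WT proliferation libraries (replicates 7 and 8) and at 364 and 402 CPM in KO proliferation. It stood at 5.11 and 1.88 CPM in WT differentiation and at 9.11 and 3.27 CPM in KO differentiation. Each differentiation library was thus far below each proliferation library, and WT cells kept 0.826% and KO cells 1.61% of the proliferation mean. The log2 fold change was -6.92 (SE 0.63, adjusted p = 0.000272 by edgeR) in WT and -5.96 (SE 0.597, adjusted p = 0.000479 by edgeR) in KO.

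Dusp4 and Dusp5 encode the nuclear phosphatases, and they fell to different extents. Dusp4 (gene ID 319520, on chromosome 8 from 34807610 to 34821951) stood at 86.8 and 59.8 CPM in WT proliferation and at 3.54 and 2.41 CPM in WT differentiation. In KO it stood at 130.1 and 85.9 CPM in proliferation and at 4.95 and 2.14 CPM in differentiation. Replicate 7 was the higher library of each pair. Dusp4 fell by 4.62 on the log2 scale in WT (SE 0.465, adjusted p = 0.000389 by edgeR) and by 4.93 in KO (SE 0.466, adjusted p = 0.000396 by edgeR). Dusp5 (gene ID 240672, on chromosome 19 from 53528609 to 53541809) stood at 10.4 and 10.2 CPM in WT proliferation and at 3.20 and 3.22 CPM in WT differentiation. The KO libraries gave 16.4 and 15 CPM in proliferation and 1.94 and 1.77 CPM in differentiation. Its replicates lay close together in every group. Dusp5 fell by 1.68 in WT (SE 0.186, adjusted p = 0.000504 by edgeR) and by 3.08 in KO (SE 0.197, adjusted p = 7.92e-05 by edgeR).

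To show the DNA in front of the gene with the largest fall in WT and of the gene whose KO effect changed sign between conditions, described further below, the 250 bases before the start of Dusp6 and of Dusp5 are given, with the same stretch of Spry1, the gene with a match to the TEAD core. Sequences are those of RefSeq on GRCm38.p6, on the strand of the gene (chr10:99262981-99263230, chr19:53528895-53529144 and chr3:37639697-37639946, all plus strand). Capitals mark motif matches.
Dusp6: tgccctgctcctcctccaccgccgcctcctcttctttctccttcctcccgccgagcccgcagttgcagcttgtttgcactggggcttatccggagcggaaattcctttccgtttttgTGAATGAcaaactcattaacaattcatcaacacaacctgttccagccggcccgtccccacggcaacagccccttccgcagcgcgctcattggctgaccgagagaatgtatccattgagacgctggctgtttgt
Dusp5: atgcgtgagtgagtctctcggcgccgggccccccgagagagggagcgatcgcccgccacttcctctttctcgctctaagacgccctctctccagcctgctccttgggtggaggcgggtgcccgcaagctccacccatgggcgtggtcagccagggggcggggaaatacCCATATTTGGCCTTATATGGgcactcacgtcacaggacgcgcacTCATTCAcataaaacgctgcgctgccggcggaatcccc
Spry1: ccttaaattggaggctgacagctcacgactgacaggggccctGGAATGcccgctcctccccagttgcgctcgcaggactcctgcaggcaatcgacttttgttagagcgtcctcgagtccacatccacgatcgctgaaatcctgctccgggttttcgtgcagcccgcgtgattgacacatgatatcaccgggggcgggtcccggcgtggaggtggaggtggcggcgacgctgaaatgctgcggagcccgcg

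Promoters of 8 of the 10 genes were in the RefSeq table (not Spry4 and Dusp4), as 250 bases before to 50 after the start. They were searched on both strands for motifs of factors that act downstream of ERK or with YAP1. Capicua (CIC), a repressor that ERK relieves, was represented by 2 octamers, TGAATGAA (found in 1.3% of the 32851 promoters in the table) and TGAATGGA (1.21%). The other motifs were an ETS site, CCGGAAGT (3.89%), an AP-1 site, TGACTCA (5.2%), and the TEAD core, GGAATG (14.7%). Positions are counted from the start that the table uses. For Spred3 that start lies inside the gene model given below (window before it 29168648 to 29168897 on chromosome 7, minus strand), and the window of Il17rd (27038751 to 27039000) also runs into its model. The windows of Dusp5 and Spry1 precede their RefSeq starts but lie inside their deposited models, which begin at 53528609 and 37638579. The first octamer was present in this internal window of Spred3, from position -10. The TEAD core, to which the partners of YAP1 bind, was present in Spry1, from position -208. None of these 5 motifs was found in the windows of Spry2, Spred1, Spred2, Dusp5, Dusp6 and Il17rd. A further pair of motifs was added after the sequences had been read. The heptamer TGAATGA (3.75% of promoters), contained in the first octamer, was present in Dusp6 from position -133, in Dusp5 on the other strand from position -38 (read as TCATTCA above), and in the internal window of Spred3 within its octamer. The CArG box, the binding motif of serum response factor, was found in 1.63% of promoters and occurred in Dusp5 as 2 adjoining copies, from positions -82 and -72. These matches are descriptions of letters, not of bound sites.

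Among the Sprouty genes, Spry4 and Spry1 fell far more than Spry2. Spry4 (gene ID 24066, on chromosome 18 from 38586247 to 38601347) stood at 368 and 291 CPM in WT proliferation and at 6.17 and 2.57 CPM in WT differentiation. KO cells had 436 and 401 CPM in proliferation and 8.37 and 4.23 CPM in differentiation. WT cells kept 1.33% and KO cells 1.5% of the proliferation mean, the next to largest fall in WT and the largest in KO. The log2 fold change was -6.24 (SE 0.501, adjusted p = 0.000176 by edgeR) in WT and -6.06 (SE 0.493, adjusted p = 0.000226 by edgeR) in KO. Spry1 (gene ID 24063, on chromosome 3 from 37638579 to 37647952) stood at 169.6 and 144 CPM in WT proliferation and at 8.59 and 5.52 CPM in WT differentiation. In KO its levels were 209 and 183 CPM in proliferation and 7.00 and 8.46 CPM in differentiation. WT cells kept 4.5% and KO cells 3.94% of the proliferation mean, with a log2 fold change of -4.48 in WT (SE 0.242, adjusted p = 4.04e-05 by edgeR) and -4.66 in KO (SE 0.243, adjusted p = 3.56e-05 by edgeR).

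Spry2 (gene ID 24064, on chromosome 14 from 105891947 to 105896819), the most studied mammalian Sprouty, fell much less. It stood at 144 and 176 CPM in WT proliferation and at 83.0 and 83.4 CPM in WT differentiation. The KO values were 149 and 222 CPM in proliferation and 75.1 and 97.6 CPM in differentiation. WT cells thus kept 52.1% and KO cells 46.6% of the proliferation mean. The log2 fold change was -0.94 in WT (SE 0.223, adjusted p = 0.0118 by edgeR) and -1.10 in KO (SE 0.223, adjusted p = 0.00701 by edgeR). The WT call was lost without WT proliferation replicate 8 (-0.79, adjusted p = 0.06 by edgeR), WT differentiation replicate 7 (-0.94, 0.0604) or WT differentiation replicate 8 (-0.94, 0.0572).

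The Spred genes kept between 47.6% and 78.5% of their proliferation means. Spred1 (gene ID 114715, on chromosome 2 from 117121071 to 117182279), whose human counterpart is mutated in Legius syndrome, stood at 406 and 367 CPM in WT proliferation and at 232 and 177 CPM in WT differentiation. In KO it measured 442 and 369.8 CPM in proliferation and 291 and 193 CPM in differentiation. Its log2 fold change was -0.92 in WT (SE 0.23, adjusted p = 0.0146 by edgeR) and -0.75 in KO (SE 0.229, adjusted p = 0.0328 by edgeR). Both calls depended on single libraries. The WT call was lost without WT proliferation replicate 7 (log2 fold change -0.84, adjusted p = 0.0707 by edgeR) or WT differentiation replicate 8 (-0.73, 0.0877). The KO call was missed after leaving out KO proliferation replicate 7 (-0.61, adjusted p = 0.135 by edgeR), KO proliferation replicate 8 (-0.86, 0.0559), KO differentiation replicate 8 (-0.48, 0.114), WT proliferation replicate 7 (-0.74, 0.0567) or WT proliferation replicate 8 (-0.74, 0.0564). It was also lost when only the KO groups were fitted (-0.73, adjusted p = 0.0712 by edgeR).

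Spred2 (gene ID 114716, on chromosome 11 from 19924442 to 20024026) stood at 134 and 145 CPM in WT proliferation and at 77.2 and 55.8 CPM in WT differentiation. KO libraries showed 151 and 141 CPM in proliferation and 89.9 and 68.3 CPM in differentiation. It fell by 1.07 on the log2 scale in WT (SE 0.193, adjusted p = 0.00374 by edgeR) and by 0.88 in KO (SE 0.192, adjusted p = 0.00894 by edgeR). Spred2 was the one member with counts that were not whole numbers in the deposited table. Spred3 (gene ID 101809, on chromosome 7 from 29157783 to 29170070), the least expressed Spred, stood at 31.1 and 33.4 CPM in WT proliferation and at 28.1 and 22.6 CPM in WT differentiation. For KO the values were 39.3 and 34.99 CPM in proliferation and 19.7 and 23.6 CPM in differentiation. The WT log2 fold change of -0.35 (SE 0.158) did not pass (adjusted p = 0.102 by edgeR), and the KO fall of 0.78 (SE 0.159) did (adjusted p = 0.00699 by edgeR). The difference between both, -0.43 (SE 0.224, adjusted p = 0.981 by edgeR), did not pass.

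Il17rd (gene ID 171463, on chromosome 14 from 27038964 to 27107286) went the other way. It stood at 6.88 and 7.23 CPM in WT proliferation and at 37.4 and 34.2 CPM in WT differentiation. In KO cells it reached 4.32 and 7.91 CPM in proliferation and 36.8 and 43.3 CPM in differentiation. Every differentiation library lay above every proliferation library. The rise was 5.07-fold in WT (log2 fold change 2.34, SE 0.276, adjusted p = 0.000668 by edgeR) and 6.55-fold in KO (2.71, SE 0.28, adjusted p = 0.000487 by edgeR).

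**Figure D2:**
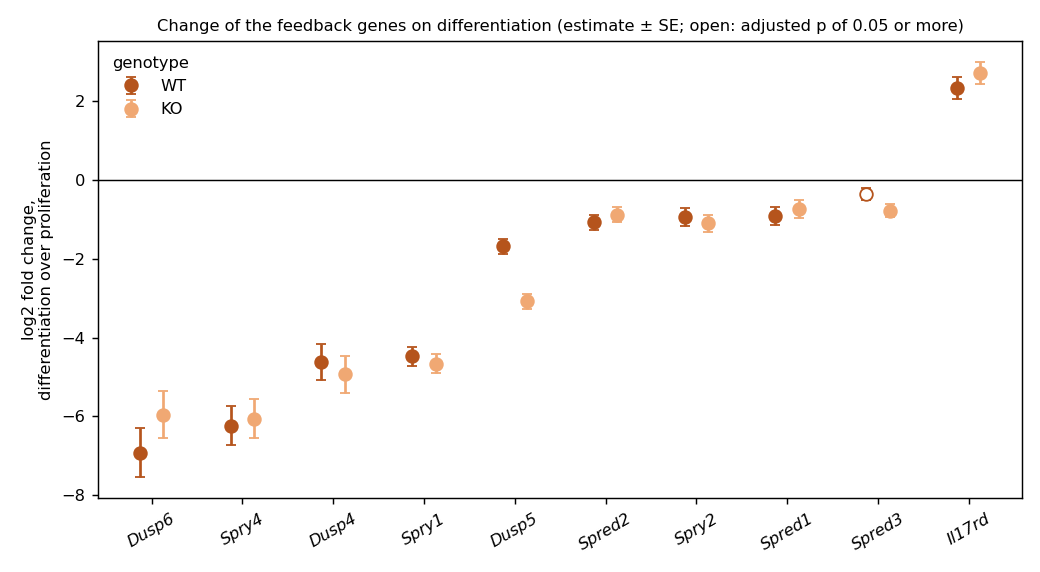
Log2 fold change of differentiation over proliferation for each gene in WT and KO, with SE bars from the edgeR fit; open symbols did not pass. Dusp6, Spry4, Dusp4 and Spry1 lie below -4, Dusp5 between -1.68 and -3.08, Spry2 and the Spred genes between 0 and -1.1, and Il17rd above 0.

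Spry1, Spry4, Dusp4 and Dusp6 had log2 fold changes below -4 in both genotypes. This bound was set after the values were seen. A fall of that size was called for 2.18% of all tested genes in WT and 2.35% in KO. Within the differentiated groups 3 of these 4 genes differed between the replicates in the same direction in both genotypes. Over all tested genes these differences correlated at 0.703 between WT and KO differentiation, so a shared direction is not particular to these genes. Dusp6 was higher in replicate 7 than in replicate 8 by 1.44 on the log2 scale in WT differentiation and by 1.48 in KO differentiation. Spry4 was higher in replicate 7 by 1.26 and 0.98, and Dusp4 by 0.55 and 1.21. In proliferation Dusp6 differed the other way between the same numbers (-0.12 in WT and -0.14 in KO). Within the numbers 7 and 8 the WT log2 fold change on differentiation was -6.31 and -7.88 for Dusp6 and -5.90 and -6.82 for Spry4, so that the residual level differed between numbers and the fall held in both.

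**Figure D3:**
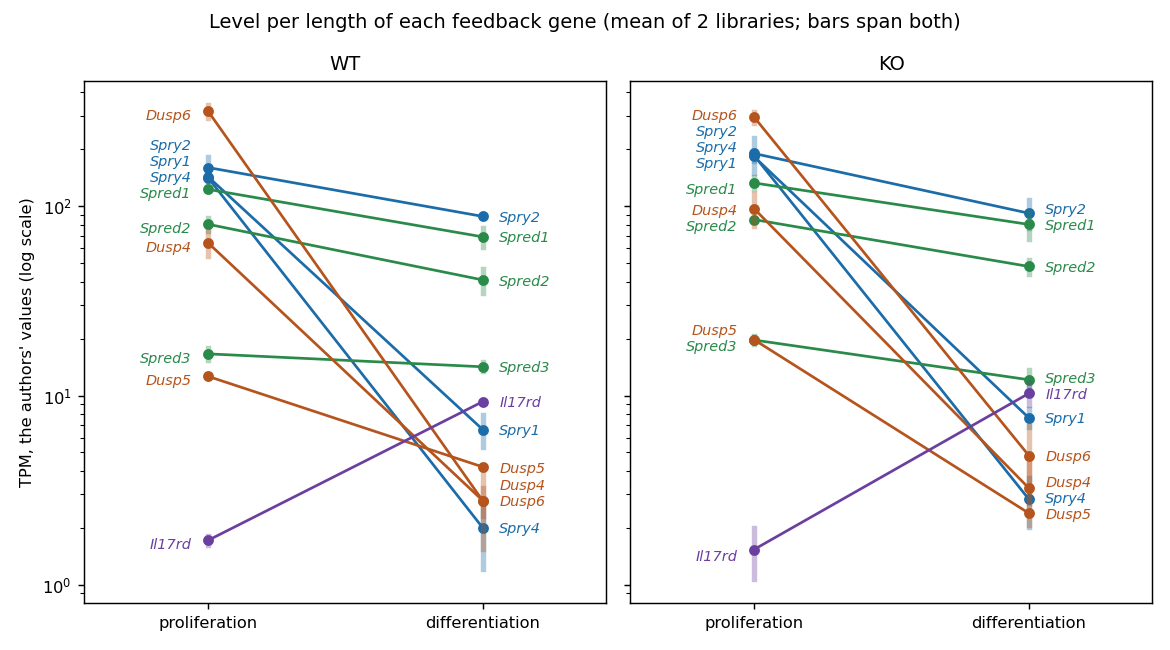
Level per gene length (the authors' TPM, log scale) in proliferation and differentiation, for WT and KO; points are means of 2 libraries and bars span both. Dusp6 goes from the highest member in proliferation to below Spry2, all 3 Spred genes, Il17rd and Spry1 in differentiation.

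Levels of different genes were compared per gene length, on the authors' TPM. In WT proliferation the order of mean TPM was Dusp6 (319 ± 35.4, SD, n = 2), Spry2 (160.4), Spry1 (144), Spry4 (142), Spred1 (123), Spred2 (80.4), Dusp4 (64.2), Spred3 (16.6), Dusp5 (12.6) and Il17rd (1.72). Libraries of neighbours overlapped only for Spry2 with Spry1 and for Spry1 with Spry4, so those 3 did not differ beyond their spread. In WT differentiation the order was Spry2 (88.5 ± 2.0, SD, n = 2), Spred1 (69.0), Spred2 (40.8), Spred3 (14.2), Il17rd (9.29), Spry1 (6.61), Dusp5 (4.20), Dusp4 (2.79), Dusp6 (2.78) and Spry4 (2.0). Here the last 3 overlapped with each other. In KO differentiation the order was Spry2 (92.0), Spred1 (80.3), Spred2 (48.1), Spred3 (12.1), Il17rd (10.3), Spry1 (7.63), Dusp6 (4.82), Dusp4 (3.25), Spry4 (2.84) and Dusp5 (2.39). Neighbours overlapped there for Spry2 with Spred1, for Spred3 with Il17rd and for each pair from Spry1 to Dusp5. Spry2 made up 28.0% to 40.4% of the summed TPM of the 3 Sprouty genes in the proliferation libraries and 88.0% to 93.2% in the differentiation libraries. The 3 Spred genes summed to 214.6 to 249.4 TPM in proliferation and 109.2 to 155.9 TPM in differentiation. The 3 phosphatase genes summed to 380.4 to 414.8 TPM and to 7.17 to 13.74 TPM. In KO proliferation the order began with Dusp6 (297 TPM), Spry2 (190.3), Spry4 (186) and Spry1 (183), and these 3 Sprouty genes again overlapped.

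The other genes of the pathway were taken from lists named by function, and their counts in WT stand beside the same shares of all genes (27.0% higher and 28.3% lower). Of 16 tested ERK-induced genes outside the set, 9 fell and 2 rose, with a median log2 fold change of -1.66. Ccnd1, the gene of cyclin D1, stood at a mean of 2572 CPM in proliferation and 30.5 CPM in differentiation (log2 fold change -6.40, adjusted p = 0.000253 by edgeR). Etv5, an ETS factor induced by FGF signalling, stood at 909 and 55.1 CPM (-4.04, adjusted p = 0.000719 by edgeR). Its relative Etv4 kept more, with 106 and 36.4 CPM (-1.54, adjusted p = 0.0107 by edgeR). Epha4, an ephrin receptor gene, rose from 14.7 to 38.1 CPM (1.38, adjusted p = 0.00103 by edgeR). Fos, the other gene of this list that rose, did so by more, with a log2 fold change of 3.44 in WT and 2.13 in KO, both called. Of 7 other MAP kinase phosphatases tested, 4 fell and 1 rose. Dusp7, whose product is a cytoplasmic ERK phosphatase related to DUSP6, fell from 81.5 to 21.5 CPM (-1.92, adjusted p = 9.96e-05 by edgeR), and Dusp8, whose product prefers JNK and p38, rose from 9.92 to 50.3 CPM (2.34, adjusted p = 0.000285 by edgeR). In KO, 10 ERK-induced genes fell and 2 rose, and the counts of phosphatases were 4 and 1 as in WT.

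Among receptors, more genes rose than fell. Of 10 receptor genes tested in WT, 6 rose and 2 fell, with a median log2 fold change of 1.85, beside 27.0% of all genes called higher and 28.3% lower. The 2 falls are thus no more than the share of all genes. Egfr, the EGF receptor, stood at 332 CPM in proliferation and 266 CPM in differentiation (-0.32, SE 0.241, adjusted p = 0.292 by edgeR). Fgfr1, the FGF receptor of progenitors, fell from 246 to 131 CPM (-0.91, adjusted p = 0.0017 by edgeR). Fgfr2 rose from 14.6 to 78.1 CPM (2.42, adjusted p = 0.00256 by edgeR). Fgfr3, also an astrocyte marker, rose from 158 to 382 CPM (1.27, adjusted p = 0.0393 by edgeR), a call lost without WT proliferation replicate 7 (0.87, adjusted p = 0.16 by edgeR), WT differentiation replicates 7 or 8 (1.05 and 1.47, 0.156 and 0.067) or KO differentiation replicates 7 or 8 (1.27 in both, 0.0634 and 0.0623). Met, the HGF receptor, rose from 0.371 to 14.2 CPM (5.23, adjusted p = 6.84e-05 by edgeR). Pdgfra, a PDGF receptor and also an oligodendrocyte precursor marker, rose from 5.10 to 96.3 CPM (4.24, adjusted p = 9.55e-05 by edgeR).

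Adaptors and RAS regulators, such as docking proteins that link receptors to RAS, showed 8 rises and 2 falls among 15 tested. Gab1 rose from 111 to 264 CPM (1.25, adjusted p = 0.000137 by edgeR), Rasa2 from 22.8 to 65.8 CPM (1.53, adjusted p = 0.000506 by edgeR) and Frs2, the FGF receptor docking protein, from 67.5 to 121 CPM (0.85, adjusted p = 0.000723 by edgeR). The RAS, RAF, MEK and ERK core had 3 rises and 4 falls among 17, with a median of -0.02, and both counts are below the shares of all genes called. Hras, a RAS gene, fell from 64.6 to 44.5 CPM (-0.54, adjusted p = 0.00357 by edgeR), and the scaffold Ksr1 rose from 21.0 to 49.4 CPM (1.23, adjusted p = 0.000822 by edgeR). Other negative regulators of receptor signalling had 4 rises and 1 fall among 8. Among them was Socs3, a cytokine signalling inhibitor, at 3.82 and 14.1 CPM (1.88, adjusted p = 0.00089 by edgeR). Changes in KO had similar counts for 3 of these lists, with 6 and 2 for receptors, 8 and 2 for adaptors and 3 and 5 for the core. The other regulators had fewer rises in KO, with 2 rises and 1 fall.

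**Figure D4:**
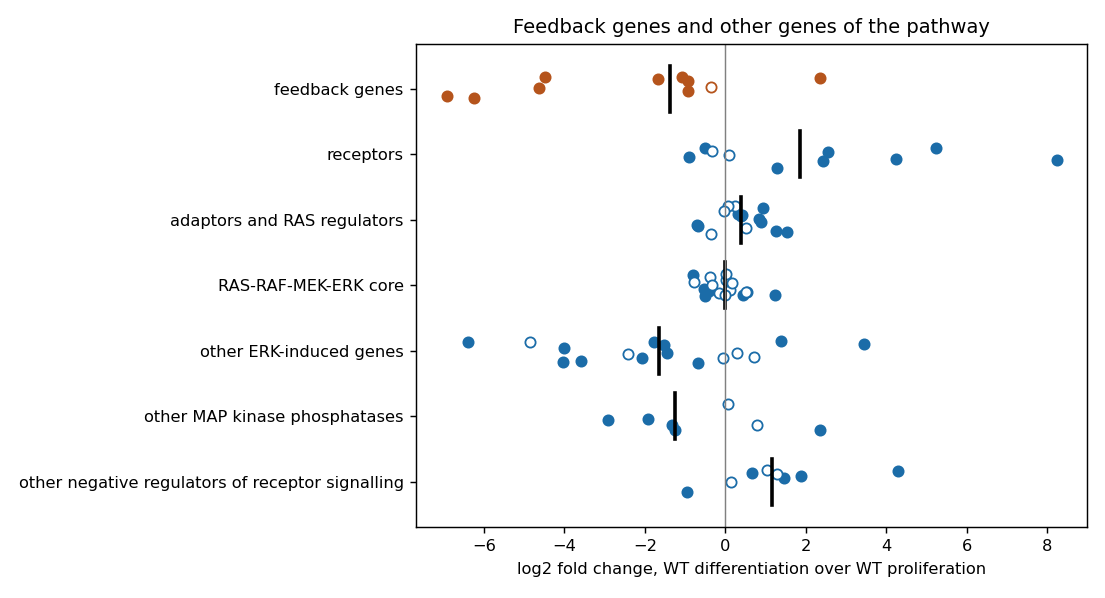
Log2 fold change of WT differentiation over WT proliferation for the 10 feedback genes and the tested members of 6 other lists of the pathway; filled points passed the test and black bars are medians. The feedback genes have a median of -1.38, ERK-induced genes -1.66 and the receptors 1.85.

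Genes with the pattern most like Spry4 and Dusp6 were sought by Pearson's r of log2 CPM over the 8 libraries, among 10763 genes outside the set with a mean of at least 5 CPM. For Spry4 they were Gmnn (r = 0.9985), Chrm3 (0.9979), Timm23 (0.9975), Cdca4 (0.9971) and Peli1 (0.9971). For Dusp6 they were Gmnn (r = 0.9990), Pcgf3 (0.9987), Mis18a (0.9985), Sass6 (0.9985) and Pkn2 (0.9981). Gmnn, the gene of the replication inhibitor geminin, headed both and stood at 22.5 and 0.415 CPM in WT proliferation and differentiation. The value r does not measure the size of a change, and this differed between the genes. In the same groups Chrm3 stood at 62.3 and 2.13 CPM, but Timm23 at 143 and 76.8 CPM and Pcgf3 at 110 and 58.2 CPM. An r over 0.99 was reached by 139 candidates for Spry4 and 115 for Dusp6, and the 8 points form a pair of clusters by culture condition. These values are a description only.

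KO was compared with WT within each condition, with the same libraries as above, and none of the 10 genes passed in either. In proliferation 8 of 10 had a log2 fold change above 0 (median 0.21), where 50% of all tested genes did (median 0.00). The count of 0 called members stood beside 0.0% of all genes called higher and 0.00767% called lower (edgeR). At an unadjusted p under 0.05 there was 1 member, Dusp5, which was higher in KO (1.43% of all genes were, and 0.828% lower), and DESeq2 and limma-voom also called 0 members. Both KO libraries lay above both WT libraries for Spry1, Spry4, Spred3 and Dusp5 (14.7% of all genes did so) and below them for Dusp6 (15.6% of all genes). In the same proliferation libraries the summed progenitor, dividing-cell and ependymal markers lay lower in KO than in WT and the oligodendrocyte precursor markers higher, without overlap. In differentiation the summed astrocyte, oligodendrocyte, ependymal and dividing-cell markers lay lower and the summed neuron markers higher. Single genes did not all follow the sums, and none was called (edgeR). Above 0 were 4 of 9 astrocyte and 2 of 3 tested oligodendrocyte markers (median log2 fold changes -0.04 and 0.16). So were 1 of 3 tested ependymal, 0 of 6 dividing-cell and 5 of 6 neuron markers (medians -1.09, -0.865 and 0.28). The part of these marker shifts in the KO values was not tested. With 2 libraries per group a missed threshold does not show that levels were alike. No gene of the 6 other pathway lists was called in either condition. The ERK-induced genes had a median log2 fold change of 0.21 in proliferation (12 of 16 above 0) and -0.34 in differentiation (4 of 16).

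Dusp5 and Dusp4 had the largest values in proliferation. Dusp5 averaged 10.3 ± 0.162 CPM in WT and 15.7 ± 1.02 CPM in KO (SD, n = 2). Its log2 fold change was 0.61 (SE 0.178, adjusted p = 1 by edgeR) and came to 0.66 for the libraries numbered 7 and 0.56 for those numbered 8. Dusp4, at 73.3 ± 19.1 and 108 ± 31.3 CPM (SD, n = 2), had 0.56 (SE 0.38, adjusted p = 1 by edgeR), with 0.58 and 0.52 within the numbers. Its groups overlapped by a narrow margin, with the lowest KO library at 85.9 CPM and the highest WT library at 86.8 CPM. Spry1 had 0.32 (SE 0.204), with 0.30 and 0.35 within the numbers, and Spry4 0.35 (SE 0.387), with 0.25 and 0.46. Spred3 had 0.20 (SE 0.157), with 0.34 and 0.07. Spry2 (0.21, SE 0.22), Spred1 (0.07, SE 0.228) and Spred2 (0.07, SE 0.19) overlapped between genotypes. Dusp6, the most abundant member, had -0.14 (SE 0.47), with -0.15 and -0.13 within the numbers. Il17rd had -0.21 (SE 0.274), with -0.67 and 0.13 within the numbers. Each of these had an adjusted p = 1 by edgeR, and the authors' deposited table also gives q-values of 1 for all 10 genes in both KO comparisons.

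In differentiation 8 of 10 again had a log2 fold change above 0 (median 0.20), beside 51.6% of all tested genes (median 0.01). No member was called, where 0.0% of all genes were called in either direction (edgeR). DESeq2 and limma-voom called 0 as well, and 1 member, again Dusp5, had an unadjusted p under 0.05, lower in KO (2.9% of all genes were, and 1.87% higher). Libraries did not overlap for 1 member, Dusp5, which was lower in KO (15.6% of all genes were). None was higher without overlap (15.9% of all genes). Dusp5 averaged 3.21 ± 0.0138 CPM in WT and, in KO, 1.85 ± 0.119 CPM (SD, n = 2). Its log2 fold change was -0.79 (SE 0.192, adjusted p = 0.909 by edgeR) and came to -0.73 for number 7 and -0.87 for number 8. These rest on 57 and 60 counts in WT and 34 and 33 counts in KO. Dusp6 stood at 3.49 ± 2.28 and 6.19 ± 4.13 CPM (SD, n = 2), with 0.82 (SE 0.57, adjusted p = 0.946 by edgeR). Its groups overlapped, and yet the value was 0.83 within number 7 and 0.80 within number 8. Spry4 had 0.53 (SE 0.459, adjusted p = 0.971 by edgeR), with 0.44 and 0.72 within the numbers. The remaining 7 members lay between -0.23 (Spred3, SE 0.159) and 0.25 (Spred2, SE 0.191), and for Spry1, Spry2, Spred3, Dusp4 and Il17rd the sign differed between the numbers.

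**Figure D5:**
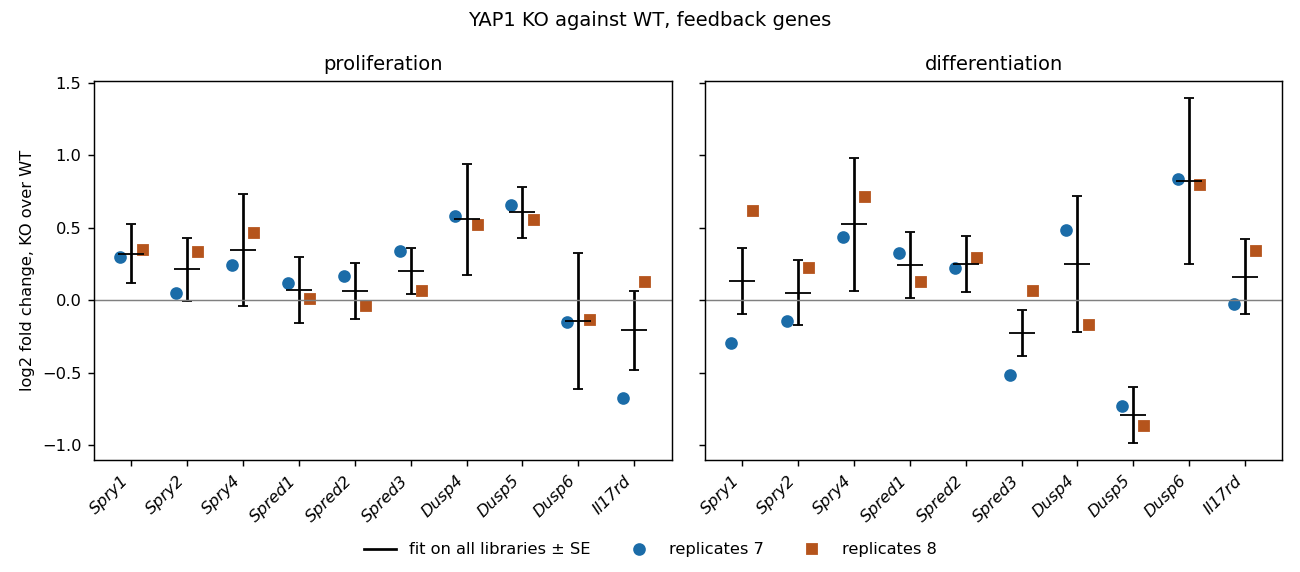
Log2 fold change of KO over WT for each gene in proliferation (left) and differentiation (right); black marks are the edgeR fit with SE, circles the replicates 7 and squares the replicates 8. Dusp5 lies above 0 in proliferation and below 0 in differentiation for both numbers.

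The difference between both KO effects was tested with an interaction contrast, and no member passed (0.0% of all genes were called). For Dusp5 the difference was -1.40 on the log2 scale (SE 0.261), with -1.38 for number 7 and -1.42 for number 8. By edgeR its unadjusted p was 0.00128, under 0.05 as for 2.68% of all genes in this direction and 1.6% in the other, and its adjusted p = 0.981. KO libraries lay above WT in proliferation and below WT in differentiation, without overlap in either, for 3.28% of all tested genes, and 7.06% lay apart in both conditions in opposite directions, whichever came first. The deposited gene model of Dusp5 begins at position 53528609, where an antisense gene model of GENCODE M21 begins that reaches position 53529655 on the other strand. Strand use in counting is not stated, and the deposited count may hold both, so reads of Dusp5 and of this antisense transcript cannot be told apart. The same holds for Spry1, whose deposited start at 37638579 is that of the antisense model Gm42922 and whose deposited end at 37647952 is that of the downstream model Gm43820. Spry4 spans a pair of small RNA genes on the strand opposite to its GENCODE model, with the same limit, and the deposited table gives Spry4 the plus strand while GENCODE M21 has it on the minus strand. For Dusp6 the difference between the KO effects was 0.97 (SE 0.738, adjusted p = 0.982 by edgeR), with 0.99 and 0.93 within the numbers.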

How the data were processed

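The authors' deposited table of the series gives, per gene and library, estimated counts (not normalised, 6.51% of values not whole) and TPM (per gene length and library), per the file headers. It also holds log2 fold changes and q-values of the authors' DESeq2 comparisons, per the file headers. The submitters' processing notes name GRCm39, while 85.4% of 16878 genes matched by gene ID share their start with RefSeq on GRCm38.p6, so coordinates are given as deposited, in GRCm38. The sources used here name no aligner or counter. A further 12 per-library columns match no label and were not used, and 12 labelled samples were not analysed here.

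Estimated counts were rounded. The filter filterByExpr, set on the 4 groups, kept 13046 genes (77.1%), which were tested with edgeR 4.0.16 in R 4.3.3: TMM, robust glmQLFit, quasi-likelihood F-test, 1 term per group (4 residual degrees of freedom), two-sided, Benjamini-Hochberg over all tested genes, threshold 0.05. The SE is the log2 fold change divided by the square root of F. The script was tested on simulated data. CPM uses TMM-scaled library sizes, and log2 CPM a prior count of 2. Differences within a number are log2 ratios of CPM. Alternatives were a replicate block, other scalings, no filter, DESeq2 1.42.0, limma-voom (limma 3.58.1), fits on the compared groups only and leaving out each library.

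The members and lists were chosen with earlier results of these data known. Named genes were all 10 members and a selection of the up to 3 genes per pathway list with the smallest p in a comparison, beside Egfr, Fgfr1, Fgfr2, Fgfr3, Etv4, Etv5, Mki67 and Yap1. Fos and the called cell type markers were named after the results were seen. For likeness the rule took 5 genes each. Depth was similar across libraries, and precision rests on n = 2. Protein sequences were not used here.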

Additional observations from a re-analysis of the deposited data

Results flagged for a closer look

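Dusp5 drew attention because the KO effect had opposite signs in the 2 culture conditions, for both replicate numbers. Its log2 fold change of KO over WT was 0.61 in proliferation and -0.79 in differentiation, without overlap of libraries in either. The interaction contrast of the same model gave an unadjusted p of 0.00128 and an adjusted p of 0.981 by edgeR, which did not pass. Over the alternatives that adjusted p ranged from 0.279 (DESeq2) to 1, and the effect stayed above 0 in proliferation and below 0 in differentiation in each of them. The groups lay apart in both conditions in opposite directions for 7.06% of all tested genes.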

How the results depend on the processing

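The count of members called on differentiation was 9 in WT under every alternative that kept all libraries and 7 to 9 without 1 library. In KO it was 10, 9 when only the compared groups were fitted, and 9 to 10 without 1 library. For KO against WT and the interaction it was 0 throughout. Over all results, the alternatives that kept all libraries reversed no direction, and leaving out 1 library reversed it in 22 of the refits, all of effects that had not passed. Without 1 library the log2 fold change of KO over WT in proliferation ranged from -0.11 to 0.47 for Spry2, -0.064 to 0.19 for Spred1 and -0.72 to 0.16 for Il17rd. In differentiation it ranged from -0.15 to 0.49 for Spry1, -0.15 to 0.23 for Spry2, -0.044 to 1.29 for Spry4, -0.084 to 0.51 for Spred1, -0.47 to 0.74 for Dusp4 and -0.090 to 1.71 for Dusp6. The difference between the KO effects ranged from -0.46 to 0.16 for Spry1, -0.41 to 0.16 for Spry2, -0.39 to 0.94 for Spry4, -0.16 to 0.44 for Spred1, -0.025 to 0.44 for Spred2 and -1.03 to 0.18 for Dusp4. The cause was not tested.

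Same-numbered libraries deviated together (correlations from 0.538 to 0.784), and the second principal component parted the numbers. No label ties a number to a litter or day, so what these libraries share is not known. There were only 2 numbers, and the main tests did not pair libraries by number. With the replicate block the counts of members called were 9 in WT and 10 in KO on differentiation and 0 in the KO comparisons. The block brought Egfr past the threshold on WT differentiation (-0.34, adjusted p = 0.0287 by edgeR) and Yap1 in differentiation (-1.99, adjusted p = 0.0172 by edgeR), which also passed with no filter on low counts (-1.99) and with DESeq2 (-1.99). Fgfr3 missed it with no filter (1.27). Other scalings moved the median of all genes by less than 0.1 on the log2 scale. Depth limits Spry1, Spry4, Dusp4, Dusp5 and Dusp6 in differentiation, which rest on 33 to 160 counts.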
